A study of Mus musculus with 12 samples.

Results

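The myeloid lineage regulators described here were 9 genes, chosen by name: the transcription factors Cebpa, Cebpb, Cebpd, Cebpe, Spi1, Gfi1, Irf8 and Irf4, and the receptor gene Csf3r. All probe sets annotated with 1 of these symbols alone were taken. Such probe sets were found for 8 of the 9 genes, of 18194 genes named in this way, giving 12 probe sets of 34958 with a single gene symbol; Cebpe had none and is named only. The study measured RNA of leukemia cells from mice on 12 Affymetrix arrays, 3 in each of 4 groups. The groups were RictorΔ/Δ MLL-AF9 leukemia, Rictor wild type (control) MLL-AF9 leukemia, RictorΔ/Δ MLL-NRIP3 leukemia and Rictor wild type (control) MLL-NRIP3 leukemia. In all 4 groups the cells were labelled K+G– bone marrow leukemia cells and were sorted from first-transplant recipients when over 50% of their white blood cells were CD45.2+. The labels also give peripheral blood as the host tissue. No source used here states mouse age, the agent or Cre line behind the deletion, or how the fusion genes were introduced. Whether replicate arrays stand for separate mice is not stated either, so every p-value below measures the spread between these arrays, which may be technical. The question put by the study's design text was which molecular events follow the loss of Rictor, the defining subunit of the kinase complex mTORC2, with MLL-NRIP3 leukemia as a further model.

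Blood progenitors become granulocytes or monocytes under a small circuit of transcription factors. Spi1, which encodes PU.1, and Cebpa open the myeloid programme, and the other C/EBP family members act later in it, Cebpb in granulocyte production under stress and Cebpe in the genes of secondary granules. Gfi1 represses monocyte genes and favours granulocytes, whereas Irf8 favours monocytes and dendritic cells; Irf4, its closest relative, acts mainly in lymphocytes and some dendritic cells. Csf3r is the receptor for the granulocyte growth factor G-CSF, which signals through JAK kinases and STAT3, and MLL fusion leukemias arise from and often resemble granulocyte and monocyte progenitors.

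RefSeq (GRCm38.p6) promoter windows were available for 6 of the 9 genes, and 3 are shown. They contrast Irf8, called lower after deletion by a single probe set in MLL-AF9 leukemia, with the C/EBP members Cebpb and Cebpa, which were not called. Mean values after deletion were higher for Cebpb and lower for Cebpa in both models. Each window is the 250 bases before the start site, 5′ to 3′ on the strand of the gene, at chr8:120736108-120736357, chr2:167688665-167688914 and chr7:35119043-35119292, all on the plus strand. Capitals mark, on either strand, the TATA box TATAAA, the GC box GGGCGG and the STAT palindrome TTCNNNGAA. The C/EBP motif TTGCNNAA was also searched and had no match in these windows. The ETS core GGAA, a motif read by PU.1 and its relatives, was searched but left in lower case except where another motif covers its bases.
Irf8: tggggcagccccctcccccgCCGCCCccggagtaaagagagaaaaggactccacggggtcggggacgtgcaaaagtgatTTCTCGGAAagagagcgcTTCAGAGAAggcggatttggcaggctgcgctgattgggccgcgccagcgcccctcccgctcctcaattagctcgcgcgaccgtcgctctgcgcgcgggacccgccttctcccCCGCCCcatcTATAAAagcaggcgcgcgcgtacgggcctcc
Cebpb: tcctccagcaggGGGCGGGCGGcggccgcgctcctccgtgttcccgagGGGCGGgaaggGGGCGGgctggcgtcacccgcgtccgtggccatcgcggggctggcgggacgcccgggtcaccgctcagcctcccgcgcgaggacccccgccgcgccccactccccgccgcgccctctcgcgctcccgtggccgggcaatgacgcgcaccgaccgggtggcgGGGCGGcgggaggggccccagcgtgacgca
Cebpa: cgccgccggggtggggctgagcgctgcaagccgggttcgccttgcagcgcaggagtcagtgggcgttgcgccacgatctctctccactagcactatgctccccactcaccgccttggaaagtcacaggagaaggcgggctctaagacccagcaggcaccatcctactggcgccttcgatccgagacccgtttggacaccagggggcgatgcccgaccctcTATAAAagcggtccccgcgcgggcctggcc
The Irf8 window held 2 STAT palindromes, at 171 to 163 and 153 to 145 bases before the start, a TATA box at 31 to 26 and 2 GC boxes. The upstream palindrome also contains the only GGAA of that window. Cebpb had 5 GC boxes, of which the first pair overlap, no TATA box and 81.6% G and C, against 67.2% in Irf8 and 66.4% in Cebpa, whose TATA box lay at 30 to 25. A STAT palindrome was present in 7.02% of all 32851 windows of this length, a TATA box in 12.4%, a GC box in 32.7%, a GGAA in 93.4% and a C/EBP motif in 9.56%. Among the member windows that begin at the start of a gene, the Gfi1 window held a C/EBP motif, at 143 to 136 bases before the start, and those of Cebpa, Cebpb, Irf8 and Irf4 held none. A match describes letters only; no binding was measured.

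Before the members, some facts of the arrays bear on how they read. The deposited intensities were linear and were tested as log2(intensity + 16), so that log2 differences of dim probe sets are understated. The models looked separately normalized, with array medians of 8.16 to 8.36 in MLL-AF9 and 13.6 to 14.2 in MLL-NRIP3 leukemia, so levels set across models below are not on 1 scale and were not tested. The Rictor probe set measured 77.9, 88.1 and 96.4 in RictorΔ/Δ and 84.4, 92.4 and 83.7 in control MLL-AF9 cells, and 84.5, 107 and 121 in RictorΔ/Δ and 87.5, 111 and 139 in control MLL-NRIP3 cells; whether it lies within the deleted stretch is not given. In MLL-AF9 leukemia the X-inactivation RNA Xist measured 34.3 to 208 in RictorΔ/Δ and 2348 to 2441 in control cells, and the Y-linked Eif2s3y 149 to 186 in RictorΔ/Δ and 3.43 to 7.81 in control cells, so genotype and the sex of the cells cannot be told apart there. In MLL-NRIP3 leukemia Xist was 2509 to 2798 in RictorΔ/Δ and 2729.6 to 3558 in control cells. Control arrays 1 and 2 of MLL-NRIP3 stood apart: their hybridization control probe sets averaged 11.22 and 10.62 on the log2 scale, against 9.38 to 9.59 on the other 4 arrays, and their Gapdh 5′ to 3′ signal ratios were 0.562 and 0.738, against 0.881 to 0.965. Kit, the stem cell factor receptor, was present on all arrays, at 135 to 157 in RictorΔ/Δ and 159.6 to 232 in control MLL-AF9 cells and at 406 to 593 in RictorΔ/Δ and 307 to 390.2 in control MLL-NRIP3 cells.

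In MLL-AF9 leukemia, Cebpd rose and Irf8 fell with Rictor deletion, while the log2 differences of Cebpa and Spi1 were -0.09 and -0.02 and not called. In MLL-NRIP3 leukemia no member passed the test; Spi1 had its lowest values in RictorΔ/Δ cells, and Irf8 differed more between control arrays than between groups. Each model was fitted with limma over the 22531 probe sets with 1 symbol and a mean intensity of at least 7.70, and a probe set was called at a Benjamini-Hochberg adjusted p under 0.05. Of the 12 member probe sets, 11 passed this filter; the dim Irf4 probe set 1421174_at did not. In MLL-AF9 leukemia 2 of 11 were called, 1 higher and 1 lower, where 6.05% of all tested probe sets were called, 2.97% higher and 3.08% lower. With 1 array left out the count was 5 without control array 2, and 1 without RictorΔ/Δ array 2 or control array 1 or 3. Unadjusted p was under 0.05 for 8 of 11, against 19.9% of all tested, and the 3 arrays of a group lay wholly above those of control for 4 and wholly below for 1, against 11.3% and 14.1% of all tested. These probe sets are not independent. Cebpb, Cebpd and Irf8 each enter the 8 with 2 probe sets, and Cebpd enters the 4 with 2. The median log2 difference was 0.22 over the 11 and -0.01 over all tested. In MLL-NRIP3 leukemia 0 of 11 were called by limma, where 0.905% of all tested were called, 0.47% higher and 0.435% lower. There 2 of 11 had an unadjusted p under 0.05, against 17.2%, and 1 lay wholly above and 1 wholly below control, against 9.62% and 12.5%. With 3 arrays against 3, an exact 2-sided permutation test of a single probe set cannot give a p under 0.1.

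**Figure D1:**
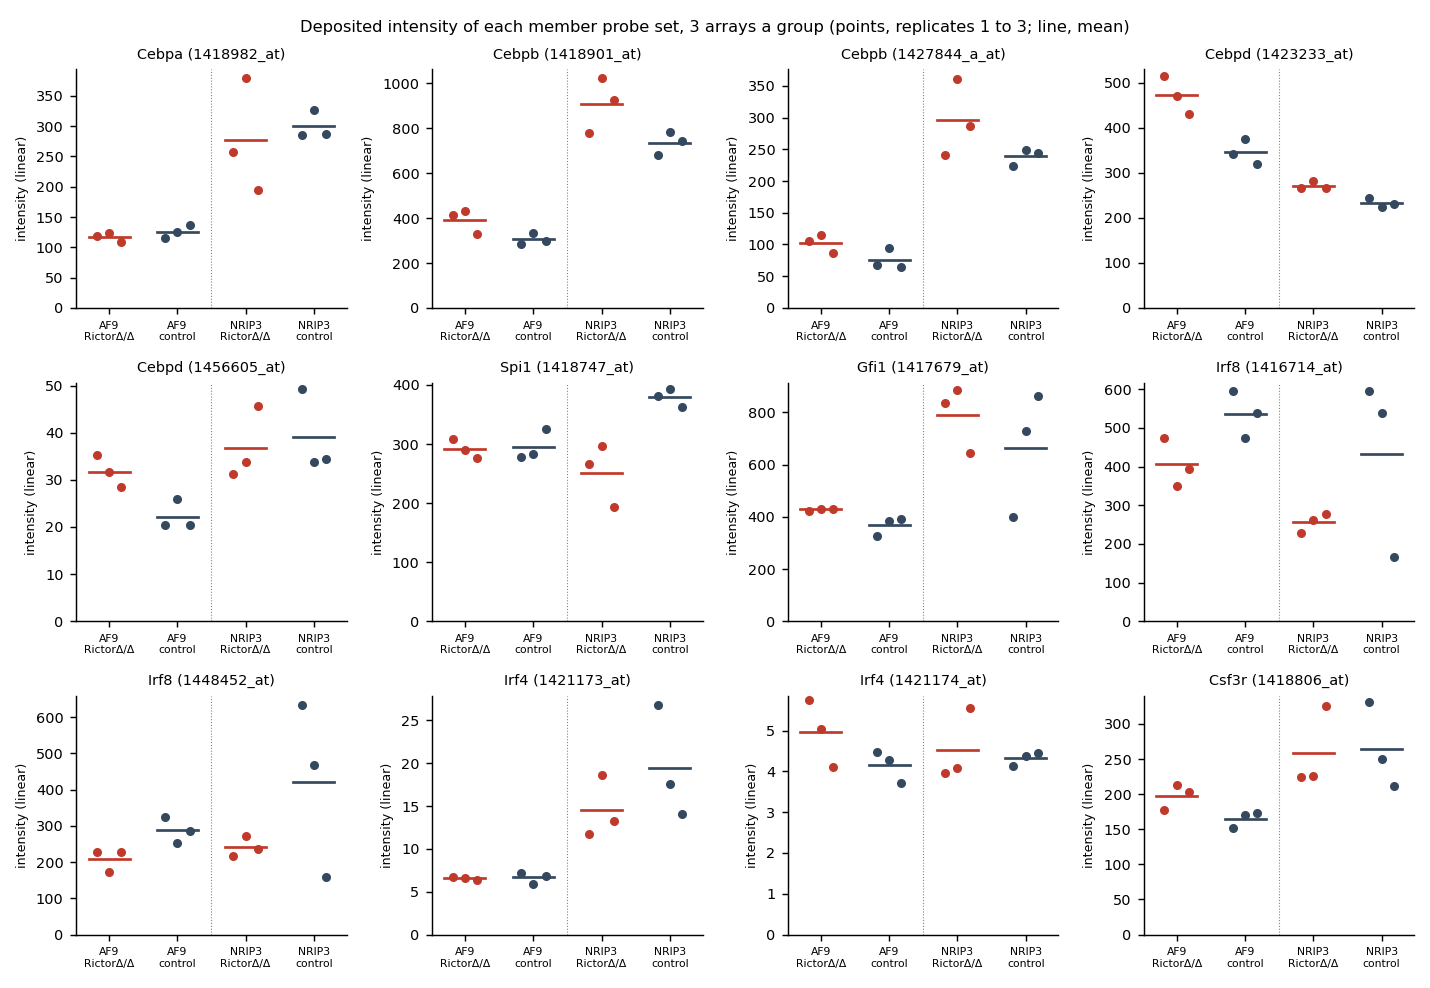
Deposited linear intensity (vertical axis, each panel on its own scale from 0) of the 12 member probe sets in the 4 groups, RictorΔ/Δ left of control in each model; points are arrays 1 to 3 and lines the means. Cebpd 1423233_at lay at 431 to 515 in RictorΔ/Δ and 319.6 to 375 in control MLL-AF9 cells, and Irf8 spread from 167 to 595 over the MLL-NRIP3 control arrays.

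Cebpd (Entrez 12609; chromosome 16, 15887286 to 15889545 in GRCm38.p6), a C/EBP member induced by cytokines and during granulocyte maturation, was the member with the smallest p in MLL-AF9 leukemia. Its brighter probe set, 1423233_at, measured 515, 470.4 and 431 in RictorΔ/Δ cells, against 342, 375 and 319.6 in control cells. All 3 deleted arrays were above all 3 control arrays. The means were 472 ± 42.1 and 346 ± 27.9 (SD, n = 3 each), a log2 difference of 0.43 ± 0.08 (SE), or 1.35-fold (limma adjusted p = 0.00777). It was called in each of the 16 alternative analyses of MLL-AF9 leukemia, with adjusted p from 0.00554 to 0.0428. The dim probe set 1456605_at measured 35.3, 31.6 and 28.4 in RictorΔ/Δ cells, against 20.4, 25.9 and 20.4 in control cells. Its groups did not overlap either, and its difference of 0.32 ± 0.09 had a limma adjusted p of 0.0537.

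In MLL-NRIP3 leukemia, 1423233_at measured 266, 282 and 267 in RictorΔ/Δ cells, against 244, 225 and 231 in control cells. The deleted arrays were again all higher, by 0.21 ± 0.12 on the log2 scale, or 1.15-fold, which did not pass the test (limma adjusted p = 0.414). The dim probe set gave 31.2, 33.7 and 45.6 in RictorΔ/Δ cells, against 49.2, 33.9 and 34.5 in control cells, with overlapping groups. The difference between the responses of the models, MLL-NRIP3 minus MLL-AF9, was -0.23 for 1423233_at, with a 95% interval from -0.50 to 0.05.

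Cebpb (Entrez 12608; chromosome 2, 167688915 to 167690432) had a log2 difference of like size in both models without being called in either. In MLL-AF9 leukemia 1418901_at measured 413, 429.9 and 331 in RictorΔ/Δ cells, against 284, 335 and 299.8 in control cells. Only deleted array 3 lay within the control range, by a small margin. The log2 difference was 0.33 ± 0.10, or 1.26-fold (limma adjusted p = 0.0656), and without that array it was 0.44 (limma adjusted p = 0.0161). The second probe set, 1427844_a_at, measured 105, 115 and 85.8 in RictorΔ/Δ cells and 67.0, 94.9 and 64.6 in control cells, a difference of 0.37 ± 0.13 (limma adjusted p = 0.124). Its second control array, the highest of that group, lay among the deleted arrays; without it the difference was 0.52 (limma adjusted p = 0.0257).

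In MLL-NRIP3 leukemia, 1418901_at measured 779.7, 1026 and 924 in RictorΔ/Δ cells, against 680.3, 784 and 742 in control cells. The lowest deleted array was just under the highest control array. The log2 difference of 0.29 ± 0.13 had an unadjusted p of 0.0456 and a limma adjusted p of 0.279. For 1427844_a_at the values were 242, 361 and 286 in RictorΔ/Δ cells and 224, 249 and 244 in control cells, with a difference of 0.28 ± 0.16 (limma adjusted p = 0.413). Between the models the Cebpb responses differed by -0.04 (95% interval -0.40 to 0.33) and -0.10 (-0.58 to 0.39) for these probe sets.

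Cebpa (Entrez 12606; chromosome 7, 35119293 to 35121928), the C/EBP member that myeloid progenitors need to become granulocyte and monocyte progenitors, was not called in either model. Its probe set measured 118, 123 and 109 in RictorΔ/Δ and 115, 125 and 138 in control MLL-AF9 cells. These ranges overlapped, although control arrays 2 and 3 were above every deleted array, and the log2 difference was -0.09 ± 0.08 (limma adjusted p = 0.595), with a 95% interval from -0.27 to 0.09. In MLL-NRIP3 leukemia the values were 257, 380.1 and 194 in RictorΔ/Δ and 285, 327 and 288 in control cells. The deleted arrays enclosed the control range on both sides, the highest being 1.96 times the lowest, and the difference of -0.16 ± 0.22 was not called (limma adjusted p = 0.751). In MLL-AF9 leukemia the Cebpa interval did not meet that of Cebpd 1423233_at, 0.26 to 0.61; the difference between the genes was not itself tested.

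**Figure D2:**
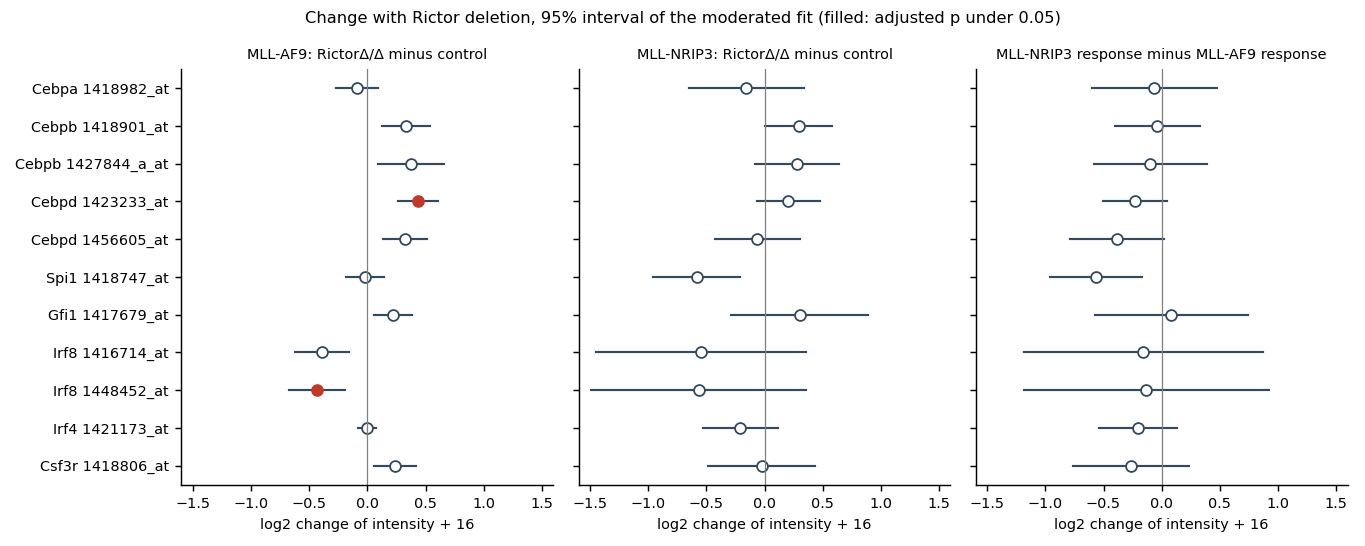
Log2 difference of intensity + 16, RictorΔ/Δ minus control (horizontal axis), for the 11 tested member probe sets in each model, and the MLL-NRIP3 response minus the MLL-AF9 response at right; points are limma estimates, bars their 95% intervals and filled points those with an adjusted p under 0.05. The 2 filled points, Cebpd at 0.43 and Irf8 at -0.43, are both in MLL-AF9 leukemia, and the Irf8 bars in MLL-NRIP3 leukemia run from -1.45 and -1.49 to 0.36.

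Spi1 (Entrez 20375; chromosome 2, 91082374 to 91115759) had lower values in RictorΔ/Δ than in control MLL-NRIP3 cells, without passing the test. In MLL-AF9 leukemia its probe set measured 309, 289 and 277 in RictorΔ/Δ cells, against 279, 283 and 326 in control cells. The groups overlapped and the log2 difference was -0.02 ± 0.07 (limma adjusted p = 0.932), with a 95% interval from -0.18 to 0.15. In MLL-NRIP3 leukemia it measured 266, 296 and 193 in RictorΔ/Δ cells, against 382, 394 and 364 in control cells. All deleted arrays were below all control arrays, and the means were 252 ± 53.1 and 379.8 ± 15.3 (SD, n = 3 each). The log2 difference was -0.58 ± 0.16, with an unadjusted p of 0.00636 that did not pass adjustment (limma adjusted p = 0.136). The 3 control arrays, which differed 3.58-fold in Irf8, were within 1.08-fold of each other in Spi1. The test of the difference between the models' responses gave -0.57 ± 0.18 (95% interval -0.96 to -0.17, unadjusted p = 0.00862, limma adjusted p = 0.116). Spi1 in MLL-NRIP3 leukemia was called in 2 of 18 alternatives, with a spread shared by all 12 arrays (limma adjusted p = 0.0135) and with array weights (0.0101); over all 18 the adjusted p ran up to 0.667.

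Gfi1 (Entrez 14581; chromosome 5, 107716655 to 107725805) measured 423, 431 and 432 in RictorΔ/Δ MLL-AF9 cells, against 325, 384 and 392 in control cells. The deleted arrays were within 1.02-fold of each other and all above control. The log2 difference of 0.22 ± 0.07 had an unadjusted p of 0.0115 and a limma adjusted p of 0.108, and none of the 16 alternatives called it. In MLL-NRIP3 leukemia Gfi1 measured 837, 886 and 643 in RictorΔ/Δ cells, against 398, 729 and 861 in control cells. The first control array was the lowest of the 6 and control array 3 lay among the deleted arrays. The difference was 0.30 ± 0.26 (limma adjusted p = 0.586).

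Irf8 (Entrez 15900; chromosome 8, 120736358 to 120756694) was lower in RictorΔ/Δ MLL-AF9 cells by both of its probe sets, of which 1 was called. The called probe set, 1448452_at, measured 228, 172 and 228 in RictorΔ/Δ cells, against 324, 253 and 286 in control cells. No deleted array reached the lowest control array, and the means were 209 ± 32.4 and 288 ± 35.3 (SD, n = 3 each). The log2 difference was -0.43 ± 0.11, which makes control 1.35-fold higher (limma adjusted p = 0.0421). The call was lost with a spread shared by all 12 arrays (limma adjusted p = 0.968) and without any single array but control array 2, where the adjusted p was 0.0573 to 0.142 and the difference -0.50 to -0.31. The other probe set, 1416714_at, measured 474, 349.8 and 395 in RictorΔ/Δ cells, against 595, 473 and 538 in control cells. Its first deleted array was level with the lowest control array, and its difference of -0.39 ± 0.11 had a limma adjusted p of 0.0536.

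Summed markers of cell types that carry Irf8 were lower in the same RictorΔ/Δ MLL-AF9 arrays, but so were those of other cell types. The part of Irf8-carrying cells in the Irf8 result was not tested. Over all tested genes 3.39% were called higher and 3.69% lower. The summed intensity of 10 monocyte and macrophage markers was 1456 to 1549.5 in RictorΔ/Δ and 1689.7 to 1954 in control cells. By the test 5 of 10 were lower and 0 higher, with 1 positive and a median log2 difference of -0.42. Most of that sum was Csf1r, at 1207 to 1283 in RictorΔ/Δ and 1249 to 1478 in control cells. For 8 dendritic cell markers the sums were 194 to 236 in RictorΔ/Δ and 257 to 318 in control cells, with Xcr1 near the floor. Of the 7 tested, 2 were called lower and 3 were positive, with a median of -0.26. For 7 B cell markers the sums were 1193 to 1318 in RictorΔ/Δ and 1442 to 1626 in control cells, mostly from Ighm, with Ebf1 near the floor. Of the 6 tested, 2 were called lower and 2 were positive, with a median of -0.19. Mast cell, basophil and eosinophil markers summed to 443 to 567 in RictorΔ/Δ and 1142 to 1273 in control cells. Progenitor markers summed to 5300 to 5849 in RictorΔ/Δ and 6304 to 6650 in control cells, with 4 of 8 called lower. T and NK cell sums were higher, at 173 to 221 in RictorΔ/Δ and 122 to 151 in control cells, as were neutrophil sums, given below. In such bulk samples, fewer cells of a type and less RNA per cell cannot be told apart.

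In MLL-NRIP3 leukemia the Irf8 values depended on which control arrays were read. Probe set 1416714_at measured 227, 263 and 276 in RictorΔ/Δ cells, against 595, 538 and 167 in control cells, and 1448452_at measured 217, 272 and 237 in RictorΔ/Δ cells, against 635, 467 and 159 in control cells. By both probe sets, control arrays 1 and 2 were the highest of the 6 and control array 3 the lowest. The log2 differences were -0.55 ± 0.40 and -0.57 ± 0.41 (limma adjusted p = 0.517 and 0.513). Without control array 3 they were -1.10 and -1.13 and called (limma adjusted p = 0.00678 and 0.013). Without control arrays 1 and 2, whose hybridization controls stood apart, they turned to 0.57 and 0.55 (limma adjusted p = 0.485 and 0.524), and a fit that took up this control signal as a covariate gave 0.53 and 0.58. The M-CSF receptor gene Csf1r measured 559.6, 388 and 272 in RictorΔ/Δ cells, against 1076, 805 and 246 in control cells, the control arrays standing in the same order as for Irf8. Summed monocyte markers were 1183 to 1539 in RictorΔ/Δ and 957 to 2049 in control cells. Of these, 0 of 10 were called, where 0.573% of all tested genes were called in each direction. Dendritic markers summed to 557 to 628 in RictorΔ/Δ and 876 to 1822 in control cells, with 0 of 7 tested called, 3 positive and a median log2 difference of -0.08; most of the sum was Flt3, also a progenitor receptor, at 417, 378 and 372 in RictorΔ/Δ and 1499.6, 715 and 669.9 in control cells. B cell markers summed to 91.0 to 130.2 in RictorΔ/Δ and 242 to 1176 in control cells, with 1 of 6 tested lower, 4 positive and a median of 0.04. The lower one was the immunoglobulin gene Ighm, at 59.6, 35.4 and 60.2 in RictorΔ/Δ and 1113, 759 and 195 in control cells. Of the defining markers, C1qb, Mrc1, Cd79a and Ebf1 were near the floor in both groups; the part of such cells in the Irf8 values was not tested.

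**Figure D3:**
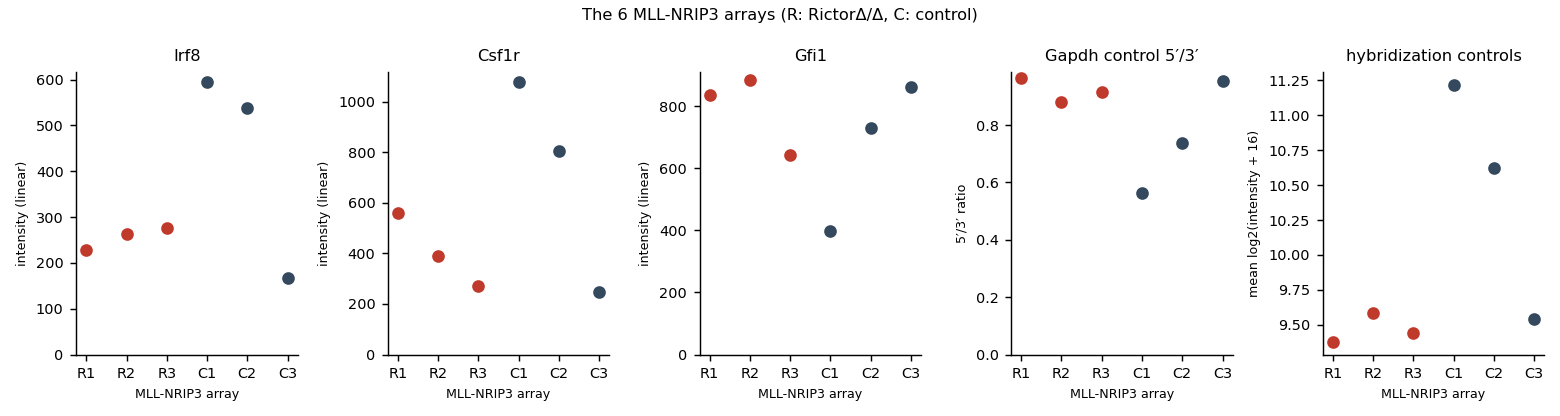
Irf8 (1416714_at), Csf1r and Gfi1 intensity, the Gapdh 5′ to 3′ control ratio and the mean log2 signal of the hybridization controls (vertical axes; the last does not start at 0) on the 6 MLL-NRIP3 arrays, RictorΔ/Δ (R1 to R3) left of control (C1 to C3). Control arrays 1 and 2 had the highest Irf8 and Csf1r, the lowest Gapdh ratios (0.562 and 0.738) and the highest hybridization signal (11.22 and 10.62).

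Irf4 (Entrez 16364; chromosome 13, 30749233 to 30766981) was dim. Probe set 1421173_at measured 6.77, 6.63 and 6.42 in RictorΔ/Δ and 7.23, 5.89 and 6.88 in control MLL-AF9 cells, and 11.7, 18.6 and 13.3 in RictorΔ/Δ and 26.8, 17.6 and 14.1 in control MLL-NRIP3 cells. The groups overlapped in both models, with log2 differences of 0.00 ± 0.03 and -0.21 ± 0.14 (limma adjusted p = 0.973 and 0.487). The first MLL-NRIP3 control array was again the highest. The other probe set, 1421174_at, read 3.71 to 5.75 over all 12 arrays and was not tested.

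Csf3r (Entrez 12986; chromosome 4, 126023441 to 126044975) measured 178, 212 and 203 in RictorΔ/Δ MLL-AF9 cells, against 151, 171 and 174 in control cells. All deleted arrays were higher, the lowest of them by a small margin. The log2 difference was 0.24 ± 0.08, or 1.18-fold, with an unadjusted p of 0.0151 and a limma adjusted p of 0.127. In MLL-NRIP3 leukemia it measured 224, 226 and 326 in RictorΔ/Δ cells, against 331, 250.1 and 211 in control cells. The highest and lowest of these 6 arrays were both controls, and the difference was -0.03 ± 0.20 (limma adjusted p = 0.965).

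Genes that carry the G-CSF signal onward moved both ways in MLL-AF9 leukemia. Of 16 tested JAK, STAT and adaptor genes, 2 rose and 2 fell, where 3.39% and 3.69% of all tested genes, each by its brightest probe set, were called higher and lower; the median log2 difference was -0.05, against -0.01 over all genes. Stat3, the main STAT of the G-CSF receptor, averaged 252 ± 18.4 in RictorΔ/Δ and 194 ± 15.5 in control cells, a log2 difference of 0.35 (limma adjusted p = 0.0223), and the adaptor gene Stap2 differed by 0.39 (0.0287). Stat5b, a STAT also used by IL-3 and GM-CSF receptors, averaged 143 ± 8.04 in RictorΔ/Δ and 187 ± 16.8 in control cells, a difference of -0.35 (limma adjusted p = 0.0234), and the adaptor gene Gab2 differed by -0.32 (0.0242). Of 10 other cytokine receptor genes tested, 0 rose and 2 fell: Flt3, a receptor of early and dendritic progenitors, by -0.46 (limma adjusted p = 0.01) and the IL-3 receptor chain Il3ra by -0.36 (0.0493). In MLL-NRIP3 leukemia none of these 16 and 10 genes was called by limma, where 0.573% of all tested genes were called in each direction; without control array 3 of that model 1 and 3 were called, with the shared spread 1 and 4, and with array weights 2 and 4. In MLL-AF9 leukemia 1 and 0 genes were called without RictorΔ/Δ array 2, 1 or 2 of each list without any other array, and 0 and 0 with the shared spread. The log2 differences kept their direction in these alternatives, at 0.29 to 0.40 for Stat3, -0.39 to -0.28 for Stat5b and -0.36 to -0.24 for Gab2.

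Among 30 tested factors that act with or near the members, 3 rose and 1 fell in MLL-AF9 leukemia, where 3.39% and 3.69% of all tested genes did, with a median of -0.01 that equals that over all genes. Ets1, an ETS factor of lymphoid and other cells, averaged 130.4 ± 21.2 in RictorΔ/Δ and 53.9 ± 8.52 in control cells, or 2.09-fold (limma adjusted p = 0.000312). Id2, an inhibitor of helix-loop-helix factors, was 1.55-fold higher (limma adjusted p = 0.0212) and Fli1, an ETS factor, 1.28-fold higher (0.0445). Myb, a progenitor factor, averaged 2152 ± 129 in RictorΔ/Δ and 2598 ± 95.3 in control cells, a log2 difference of -0.27 (limma adjusted p = 0.0125). Without RictorΔ/Δ array 1 or 3 the count of 4 fell to 2, and with the shared spread to 1. In MLL-NRIP3 leukemia 0 of the 30 were called by limma, but 5 were called without control array 3, 1 without RictorΔ/Δ array 3, 6 with the shared spread and 10 with array weights. The monocyte factor Klf4 had the largest log2 difference, 1.87 (limma adjusted p = 0.101), averaging 118 ± 77.1 in RictorΔ/Δ and 15.2 ± 3.33 in control cells. Runx1 had the smallest p, with a log2 difference of 0.76 (limma adjusted p = 0.0506). Both genes were chosen after their values were seen. The Runx1 response, MLL-NRIP3 minus MLL-AF9, differed by 1.11 ± 0.19 (limma adjusted p = 0.00626).

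Granule and neutrophil genes that C/EBP factors are known to activate had the largest median difference of the 5 lists in both models. In RictorΔ/Δ MLL-AF9 cells 14 of 18 rose and 0 fell, where 3.39% and 3.69% of all tested genes did, with a median log2 difference of 1.23. Cd177, a neutrophil surface protein, averaged 587 ± 103 in RictorΔ/Δ and 67.1 ± 22.6 in control cells, and the integrin gene Itgb2l 236 ± 29.1 in RictorΔ/Δ and 25.2 ± 12.6 in control cells. Their log2 differences were 2.88 and 2.65 (limma adjusted p = 2.82e-06 and 7.38e-06). Lcn2, an iron-binding granule protein, averaged 2594 ± 259 in RictorΔ/Δ and 517 ± 90.7 in control cells, and Fcnb, a ficolin of neutrophil granules, 1072 ± 151 in RictorΔ/Δ and 215 ± 14.3 in control cells. Their log2 differences were 2.30 and 2.23 (limma adjusted p = 6.6e-07 and 3.21e-07). Beside a 1.35-fold difference in Cebpd, these genes differed by 4.68-fold to 7.36-fold. The summed intensity of 11 neutrophil markers, which share genes with this list, was 29194 to 31710.0 in RictorΔ/Δ and 9183 to 13310.2 in control cells; the part of neutrophil RNA in the values of Cebpd, Csf3r and Gfi1 was not tested. With the shared spread 5 of the 18 were called, and 14 were called whichever array was left out.

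In MLL-NRIP3 leukemia the same 18 genes had a median of -0.57, and 1 fell and 0 rose. The count called was 8 without control array 3, 0 without control array 1 or 2 or RictorΔ/Δ array 1 or 2, 4 with the shared spread and 10 with array weights. Ngp, a secondary granule protein, measured 201, 79.9 and 290.5 in RictorΔ/Δ cells, against 5097, 2367 and 875 in control cells. All deleted arrays were lower, and the log2 difference was -3.58 ± 0.60 (limma adjusted p = 0.0379). That call was lost in 8 of 18 alternatives, always with the same direction. The difference was -2.97 without control array 1 (limma adjusted p = 0.0924), -3.52 without control array 2 (0.141), -3.69 without deleted array 1 (0.11) and -3.10 without deleted array 2 (0.103). It was over 1.5 times smaller without control arrays 1 and 2 together, at -2.26 (limma adjusted p = 0.312), and with the hybridization covariate, at -2.24 (0.28). The neutrophil marker sum was 1664 to 1990.5 in RictorΔ/Δ and 4975 to 21671 in control cells, with Mmp8 and Cxcr2 near the floor in the RictorΔ/Δ arrays. Of the 18, 10 had a lower response in MLL-NRIP3 than in MLL-AF9 leukemia by the test of the difference, where 1.9% of all tested probe sets were called lower in it.

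Genes of monocytes and macrophages known to depend on PU.1 or Irf8 were called in both directions in MLL-AF9 leukemia: 4 of 19 rose and 4 fell, where 3.39% and 3.69% of all tested genes did, with a median of -0.15. The macrophage surface protein gene Adgre1 averaged 91.0 ± 12.4 in RictorΔ/Δ and 162 ± 23.5 in control cells, a log2 difference of -0.73 (limma adjusted p = 0.00262). Ly86, a partner of an innate immune receptor, differed by -0.38 (limma adjusted p = 0.0162) and the lysosomal protein gene Cd68 by -0.38 (0.0295). Cybb, the oxidase subunit that neutrophils share with monocytes, went the other way, averaging 858 ± 112 in RictorΔ/Δ and 514 ± 135 in control cells, a difference of 0.75 (limma adjusted p = 0.0159). The count of 8 called was 2 without RictorΔ/Δ array 2 or control array 1, 4 without RictorΔ/Δ array 1 or 3, 5 without control array 3 and 6 without control array 2. With the shared spread the count was 1. In MLL-NRIP3 leukemia 0 of 19 were called by limma, with a median of -0.12, but 7 were called without control array 3, 6 with the shared spread and 7 with array weights.

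**Figure D4:**
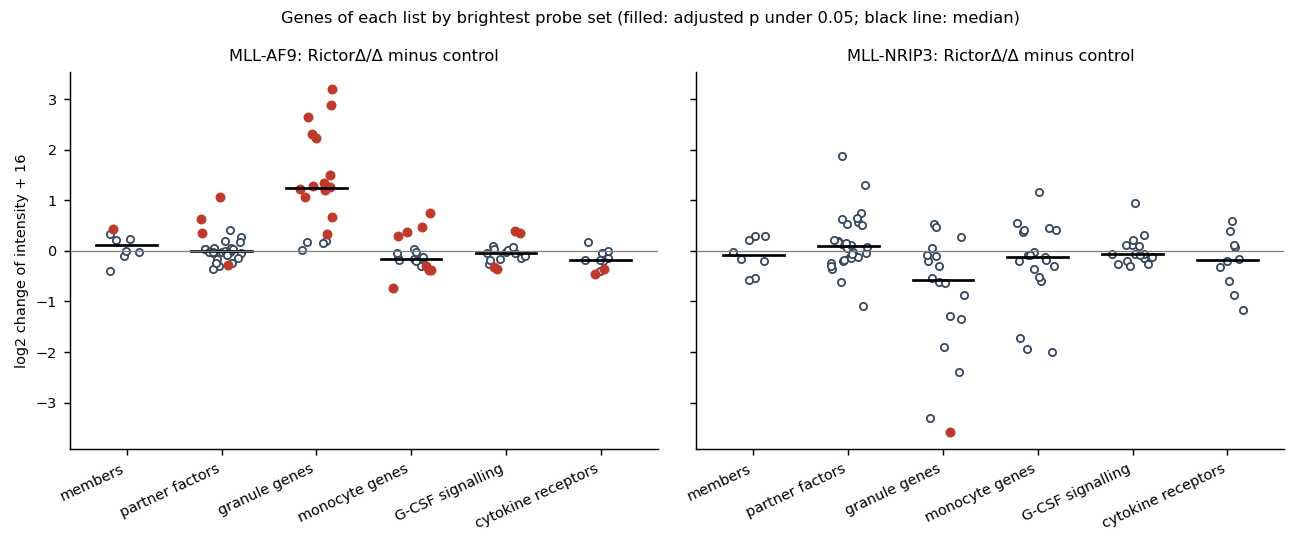
Log2 difference of intensity + 16, RictorΔ/Δ minus control (vertical axis), of each gene by its brightest probe set in the member set and the 5 lists (horizontal axis), MLL-AF9 at left and MLL-NRIP3 at right; filled points have a limma adjusted p under 0.05 and black lines are medians. The granule genes stand highest in MLL-AF9 leukemia, with a median of 1.23 and 14 of 18 called, and reach lowest in MLL-NRIP3 leukemia, with Ngp at -3.58.

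In the direct test of the difference between the models' responses, 0 of 11 member probe sets were called by limma, where 3.54% of all tested probe sets were called (1.64% higher and 1.9% lower), and 1 of 11, Spi1, had an unadjusted p under 0.05, against 17.9%. The estimates for 10 of 11 were below 0, with a median of -0.16, against 0.01 over all tested. They are not independent, since they share arrays and Cebpb, Cebpd and Irf8 each enter with 2 probe sets. Only the 95% interval of Spi1 did not include 0. The intervals were wide, for Irf8 from -1.18 to 0.87 at 1416714_at and for Gfi1 from -0.58 to 0.74. For these genes, differences between the models of any size within these intervals were not excluded. Without MLL-NRIP3 control array 3 the difference for Irf8 1416714_at was -0.71 and called (limma adjusted p = 0.0281). The models differed in their spread: the median SD over tested probe sets on the log2 scale was 0.06 in RictorΔ/Δ and 0.08 in control MLL-AF9 arrays, and 0.14 in both RictorΔ/Δ and control MLL-NRIP3 arrays.

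The genes most like the called members were found over the 12 arrays after each model's mean was removed, as a description, since the points share their arrays and groups. For Cebpd they were Tnfaip2 (Pearson r = 0.979, Spearman rho = 0.965), Scp2 (0.944 and 0.965) and Ly75 (0.942 and 0.937). Tnfaip2, a gene induced by tumour necrosis factor, kept r = 0.992 and 0.986 over the 6 arrays of MLL-AF9 and MLL-NRIP3 leukemia. In the same order r was 0.992 and 0.845 for Scp2 and 0.959 and 0.86 for Ly75. For Irf8 they were Tln2 (0.959 and 0.867), the cathepsin gene Ctsh (0.949 and 0.93) and the transcription factor gene Mef2c (0.943 and 0.93). Over the MLL-AF9 and MLL-NRIP3 arrays r was 0.815 and 0.98 for Tln2, 0.841 and 0.972 for Ctsh and 0.916 and 0.991 for Mef2c. Irf8 was read here from its brightest probe set, 1416714_at, which was not the called one. In MLL-NRIP3 leukemia its control arrays alone ranged from 167 to 595.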

How the data were processed

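The deposited table gives 1 linear intensity per probe set and array for 12 arrays and 45101 probe sets, with 0 missing values. Per the labels' protocols, biotin-labelled cRNA was made from 7 µg of total RNA extracted with Trizol. The authors' probe summary, background correction and normalization behind these intensities are unstated in the sources used here, and all values were used as deposited. Groups and replicate numbers came from the sample titles. Genes were named from the platform annotation: 34958 probe sets had 1 symbol, 932 several and 9211 none, and the last 2 kinds were left out.

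Intensities were tested as log2(intensity + 16), over the 22531 probe sets with a mean of at least 7.70, the 40th percentile. Each model's 6 arrays were fitted alone with limma 3.58.1 in R 4.3.3 (lmFit, eBayes with trend, 4 residual degrees of freedom), and the difference of responses over all 12 arrays (8 degrees of freedom). Tests were 2-sided with Benjamini-Hochberg adjustment over all tested probe sets and a threshold of 0.05. Listed genes were read from their brightest probe set. On simulated arrays of the MLL-AF9 comparison with 22531 probe sets, 98% of log2 changes of 0.5 and 100% of changes of 1 were called, with a false share of 5.24%; for MLL-NRIP3 these were 22%, 96% and 4.24%. The simulated noise was drawn independently for each probe set and array. Deviations shared by many probe sets of an array, as on MLL-NRIP3 control arrays 1 and 2, were therefore absent. Recovery in the measured arrays may be lower than these shares. Precision was limited by 3 arrays a group.

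The members and gene lists were chosen with earlier results of these data known. Named were all members, up to 4 called genes of each list and model with the smallest p, and the 3 genes most correlated with each called member. Alternatives changed the spread estimate, normalization, pseudocount, filter, probe set choice, array weights, replicate block, hybridization covariate and the arrays used. Promoter letters were searched with Python 3.11.15 in RefSeq windows.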

Additional observations from a re-analysis of the deposited data

Results flagged for a closer look

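Besides Runx1, given above, the response to Rictor deletion differed between the models for 9 further genes named above, none of them a member. These are results of limma's test of the difference itself, given as the MLL-NRIP3 log2 response minus the MLL-AF9 log2 response. Among granule genes, the difference was -5.08 ± 0.73 (SE) for Ngp (limma adjusted p = 0.00232), -3.94 ± 0.52 for Itgb2l (0.00144), -3.57 ± 0.72 for Fcnb (0.0168), -3.41 ± 0.34 for Cd177 (0.000149) and -2.95 ± 0.35 for Lcn2 (0.000587). The oxidase subunit gene Cybb differed by -2.74 ± 0.48 (limma adjusted p = 0.00794), and Id2 by -1.73 ± 0.33 (0.0132). The sex-linked genes Xist and Eif2s3y differed by 4.51 ± 0.53 (limma adjusted p = 0.000587) and -3.11 ± 0.14 (2.64e-07). Their levels differed between RictorΔ/Δ and control cells in MLL-AF9 leukemia, so that there genotype and sex cannot be told apart. The other genes of this section were named for their values within a model. This test uses those values again, so the differences may be overstated. Of all tested probe sets, 3.54% were called in it.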

How the results depend on the processing

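Over 604 combinations of a member probe set, a comparison and an alternative, 576 kept their side of the threshold, 20 gained a call, 6 lost it and 2 gave a call of the other sign. The sign of the estimate changed in 44 combinations, of which only these 2 were called: without MLL-NRIP3 control arrays 1 and 2, the Irf8 difference between the models' responses was 0.96 and 0.99 and called (limma adjusted p = 0.0294 and 0.0332). Member probe sets called in MLL-AF9 leukemia were 2 as reported, 1 with the shared spread, 4 with the filter at the 60th percentile, 5 with the replicate block and 1 to 5 with 1 array left out. In MLL-NRIP3 leukemia they were 0 as reported, 1 with the shared spread, 3 with array weights and 0 to 2 with 1 array left out. For the difference of responses they were 0 as reported, 1 with array weights, 2 without MLL-NRIP3 control arrays 1 and 2 and 0 to 1 with 1 array left out. Of all tested probe sets, 1363 were called in MLL-AF9 leukemia, 207 with the shared spread and 671 (RictorΔ/Δ array 2) to 1264 with 1 array left out. In MLL-NRIP3 leukemia 204 were called, 2848 with the shared spread, 117 with no filter, 5340 with array weights, 15 without control arrays 1 and 2, 50 with the hybridization covariate and 34 (control array 2) to 1124 (control array 3) with 1 array left out. For the difference 797 were called, 4274 with array weights and 391 (RictorΔ/Δ MLL-AF9 array 2) to 2076 (MLL-NRIP3 control array 3) with 1 array left out. Over all tested probe sets, arrays of the same replicate number did not deviate together (r from -0.108 to 0.0214 in MLL-AF9 and -0.117 to 0.048 in MLL-NRIP3 leukemia). With 3 arrays a group this cannot exclude pairing. With the replicate block 1246, 157 and 545 probe sets were called in MLL-AF9, MLL-NRIP3 and the difference. In MLL-AF9 leukemia the block added calls for Irf8 1416714_at (limma adjusted p = 0.00551) and both Cebpb probe sets (0.0407 and 0.0423). The cause of these shifts was not tested. Dim probe sets such as those of Irf4 carry little signal over background.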
